A study of Mus musculus with 6 samples.

Results

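The regions described here are the chromatin immunoprecipitation sequencing (ChIP-seq) peaks of cells that carried an empty vector (EV) in place of an inducible E2F1 construct. All peaks of the 2 EV libraries were taken and merged where they overlapped by 1 bp or more, which gave 406 intervals. Peaks of all 4 libraries merged in the same way gave 9088 intervals, and peaks of the 2 E2F1 libraries merged by themselves gave 8725. Every library came from NIH/3T3, a mouse fibroblast cell line of embryonic origin, with a stably integrated doxycycline-inducible construct that encoded E2F1 in one group and nothing in the other. Both groups were starved in 0.25% serum for 48 hours and then kept in doxycycline for 12 hours, so the EV cells shared the starvation and the drug and lacked the induced factor. The treatment protocol gives a doxycycline dose of 500 ng/ml, while the names of the peak lists carry the number 200 beside the drug, and the dose of these libraries could not be settled. Each group had 2 libraries, and 2 input samples of EV cells were not analysed here. Nothing in the labels says that replicates were separate cultures, so the spread between them may be technical.

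E2F1 is a transcription factor that pairs with a DP partner, binds promoters of genes needed for DNA replication, and is held in check by the retinoblastoma protein in resting cells. In a ChIP-seq experiment, DNA bound by an antibody is sequenced and a peak is a place where reads pile up above the local background. Peak lists of cells without the induced factor serve as the reference for those with it. Here the fold enrichment of a peak is the authors' ratio of reads at the summit to the local background, and its q-value is given as the authors' −log10 q. The local background is expressed below as a multiple of the lowest background in the same list, called the genome-wide background.

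Promoter windows of 300 bases, 250 before and 50 after each gene's start, were available from RefSeq (GRCm38.p6) for 27025 genes. EV intervals met 6 of the 32851 windows, in 5 intervals, and 3 of these windows are shown because the same stretch of letters returns within them. The promoter window of Chaf1a follows for contrast, since this gene held the EV intervals of highest fold while its start had peaks in the E2F1 libraries alone. The windows are Gm40237 (chr4:118547156-118547455, plus strand), Gm34735 (chr9:121270297-121270596, minus strand), Gm46074 (chr8:20649078-20649377, plus strand) and Chaf1a (chr17:56040166-56040465, plus strand). In Gm40237 the first 88 bases are in capitals, and in Chaf1a the capitals mark 2 E2F-type motifs. At Gm40237 the EV interval begins at chr4:118547356, so it meets only the end of the window and the capitals lie before it.
Gm40237: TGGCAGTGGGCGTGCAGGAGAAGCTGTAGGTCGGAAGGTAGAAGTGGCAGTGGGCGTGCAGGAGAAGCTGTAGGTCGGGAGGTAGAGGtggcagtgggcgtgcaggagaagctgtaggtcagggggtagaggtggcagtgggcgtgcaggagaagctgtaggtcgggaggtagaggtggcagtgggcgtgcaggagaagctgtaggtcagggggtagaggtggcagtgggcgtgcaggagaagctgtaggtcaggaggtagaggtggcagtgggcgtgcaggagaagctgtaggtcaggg
Gm34735: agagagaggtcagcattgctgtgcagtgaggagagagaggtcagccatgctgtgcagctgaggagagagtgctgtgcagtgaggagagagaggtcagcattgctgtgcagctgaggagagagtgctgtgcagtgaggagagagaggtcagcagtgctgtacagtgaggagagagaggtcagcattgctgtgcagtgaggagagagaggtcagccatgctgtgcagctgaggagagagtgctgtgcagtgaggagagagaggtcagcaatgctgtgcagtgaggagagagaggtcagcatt
Gm46074: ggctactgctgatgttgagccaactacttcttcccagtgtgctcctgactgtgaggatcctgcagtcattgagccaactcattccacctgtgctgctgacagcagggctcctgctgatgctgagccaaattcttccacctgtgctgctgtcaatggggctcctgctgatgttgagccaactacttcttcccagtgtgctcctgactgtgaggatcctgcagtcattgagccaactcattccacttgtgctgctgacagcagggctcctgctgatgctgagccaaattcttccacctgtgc
Chaf1a: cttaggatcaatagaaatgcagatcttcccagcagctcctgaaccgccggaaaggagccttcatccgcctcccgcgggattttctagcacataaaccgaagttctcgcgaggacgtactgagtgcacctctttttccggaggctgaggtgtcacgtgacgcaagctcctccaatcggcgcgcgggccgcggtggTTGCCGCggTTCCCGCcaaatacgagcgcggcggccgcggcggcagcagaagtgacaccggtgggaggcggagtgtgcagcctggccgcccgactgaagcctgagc

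The repeat was measured after the letters had been seen, by sliding each window along itself by 10 to 150 bases and taking the highest share of identical letters. The Gm40237 window matched itself at 97.6% of letters when moved by 88 bases, and no other of the 32851 windows reached that value. Its capitals themselves hold a shorter stretch more than once, with few letters changed. The 88 bases are therefore the shift of the best match, not the length of the repeated unit. Gm34735 reached 70.3% at 115 bases, a value met by 34 windows (0.103%), and Gm46074 reached 65.1% at 105 bases, met by 44 windows (0.134%). The other 3 windows met by EV intervals, those of Vmn2r29, LOC115485924 and 4933406F09Rik, lay between 32.3% and 34.8%, beside a median of 34.6% over all windows. The EV interval over Gm40237 had a fold of 1.58 at 308 times the genome-wide background, that over Gm34735 a fold of 5.85 at 2.34 times, and that over Gm46074 folds of 2.36 and 2.95 at 17.1 and 36.2 times.

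E2F-type motifs were searched in 2 sets on both strands, where letters of neighbouring motifs may overlap. The set searched first, TTTCCCGC, TTTGGCGC, TTTCGCGC and TTTGCCGC, was found in 744 of all windows (2.26%) and in 0 of 10 windows examined, which were the 6 met by EV intervals and those of Chaf1a, Nup205, Chic2 and E2f1. A shorter set, the same 4 motifs without their first T, was then chosen because the first had given no match. It was found in 3145 windows (9.57%), in 1 of the 10 windows (Chaf1a, with 2 matches) and in 0 of the 6 met by EV intervals. No match says only that these letters are not in these windows. The E2f1 window may be coding sequence, so nothing is read from it about the promoter of that gene.

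The EV libraries listed few peaks and shared few of them. EV replicate 1 listed 70 peaks and EV replicate 2 listed 358, beside 7836 and 8027 in the E2F1 replicates. Of the 406 intervals, 49 had a peak of EV replicate 1 alone, 337 of EV replicate 2 alone and 20 of both (4.93%, Wilson 95% interval 3.21 to 7.49). The number of intervals rested on EV replicate 2, without which 70 remained. The genome-wide background, the measure of depth that the lists allow, was 2.20 and 1.18 reads in the EV replicates and 1.85 and 1.86 in the E2F1 replicates, so the library with more EV peaks had the lower background. Every list starts at a −log10 p just above 10, and weaker sites are therefore not in it. Peak names are numbered up to 165 and 1612 in the EV lists and up to 10591 and 9635 in the E2F1 lists. The peaks listed are fewer, so the counts and the share in both EV libraries hold for the lists as cut.

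EV peaks were weaker and narrower than E2F1 peaks by their medians. The median fold enrichment was 3.86 and 4.88 in the EV replicates and 9.19 and 11.3 in the E2F1 replicates. On the log2 scale EV lay lower by a difference of -1.23, and the groups did not overlap. The median −log10 q was 10.6 and 8.62 in the EV replicates and 29.4 and 33.4 in the E2F1 replicates, a log2 difference of -1.71. The median width was 435 and 636 bp in the EV replicates and 938 and 814 bp in the E2F1 replicates, a log2 difference of -0.73. All 3 comparisons gave p = 0.333 in exact two-sided permutation tests (0.389 after Benjamini-Hochberg adjustment over 7 tests), the smallest p that 2 libraries against 2 allow, so the design cannot pass 0.05.

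The order of width and of −log10 q depended on the summary used. With the mean in place of the median the log2 differences were 0.32 for width and 0.43 for −log10 q, with EV above E2F1 (exact permutation p = 1 for both). The mean width was 1708 bp in EV replicate 1 and 909 bp in EV replicate 2, beside 1080 and 921 bp in the E2F1 replicates, so EV replicate 1 alone lay above them. The widest peaks were 29946 and 7361 bp in the EV replicates and 36179 and 36406 bp in the E2F1 replicates. In the EV lists 22.9% and 22.3% of peaks were under 300 bp, beside 1.62% and 2.67% in the E2F1 lists. Within the E2F1 lists high fold went with high −log10 q (Spearman's rho across peaks 0.92 and 0.95), while in the EV lists the signs were negative (-0.47 and -0.22). These are descriptions across peaks that share a library, with no p.

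Most EV intervals overlapped no gene. On the assembled chromosomes 238 of 382 intervals overlapped no gene (62.3%, Wilson 95% interval 57.3 to 67.0), beside 4.49% of E2F1 intervals. Of the rest, 104 overlapped a protein-coding gene and 40 overlapped non-coding genes or pseudogenes alone. The remaining 24 of the 406 were on unplaced scaffolds. From any gene of the table, 167 of 382 intervals (43.7%) were at least 10 kb away and 52 (13.6%) at least 50 kb. The share of the genome without genes was not computed, so 62.3% cannot be set against it. A protein-coding gene was at least 100 kb away for 100 intervals and at least 1000 kb away for 6. By library, 54.5% and 63.3% of EV peaks and 4.54% and 3.87% of E2F1 peaks overlapped no gene, a difference of 54.7 percentage points (exact permutation p = 0.333, adjusted p = 0.389).

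Gene boundaries, where most E2F1 peaks lay, held few EV intervals. Within 1000 bp of either end of a protein-coding gene there were 22 of 382 intervals (5.76%, 3.83 to 8.57), beside 80.4% of E2F1 intervals. The share was 3.03% without EV replicate 2. By library it was 3.03% and 6.21% of EV peaks and 81.1% and 81.3% of E2F1 peaks, a difference of -76.6 percentage points (exact permutation p = 0.333, adjusted p = 0.389). The gene table holds no strand or exons, so starts and ends of genes are not told apart in these counts.

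**Figure D1:**
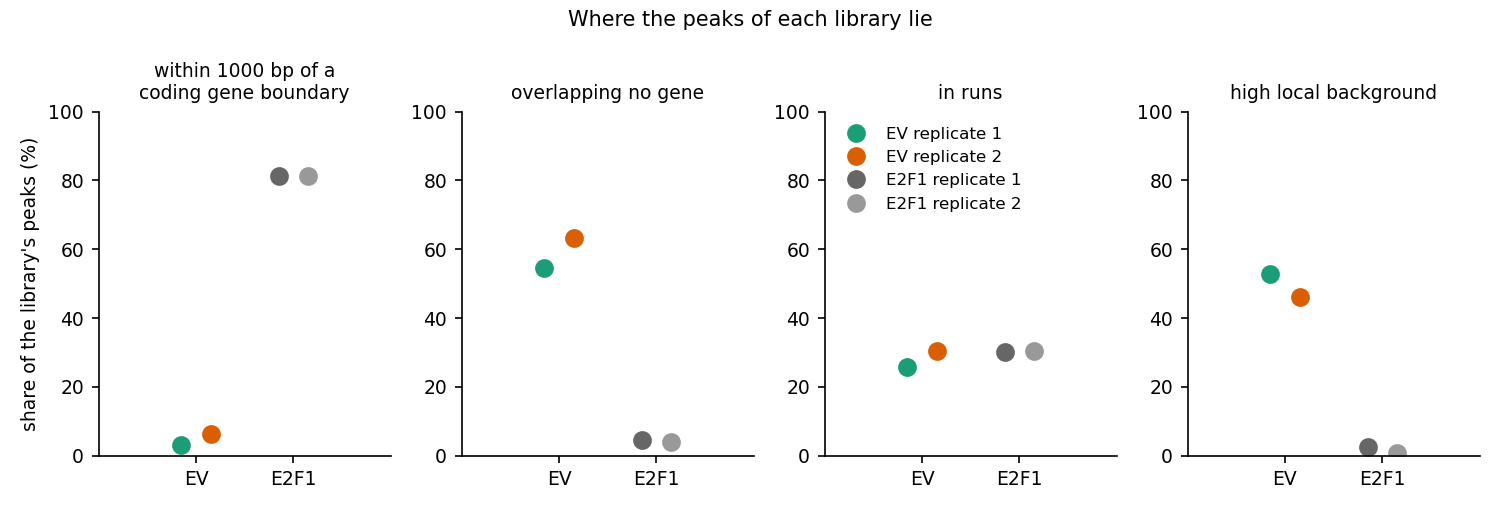
Share of each library's peaks (percent, axis from 0 to 100) at most 1000 bp from an end of a protein-coding gene, overlapping no gene, in runs, and at high local background; each point is 1 library. The EV and E2F1 points lie apart in every panel but that of the runs, where they overlap.

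The protein-coding genes nearest to EV intervals often carried provisional names. A Gm or LOC number named the nearest protein-coding gene of 82 of 382 intervals (21.5%), beside 1465 of 21887 protein-coding genes (6.69%) and 140 of 8713 E2F1 intervals (1.61%). Zinc finger genes with a Zfp symbol were nearest to 15 intervals (3.93%, and 1.83% of all protein-coding genes) and olfactory receptor genes to 2 (0.524%, and 5.07%). Vomeronasal receptor genes with a Vmn symbol were nearest to 10 (2.62%, and 1.62%) and defensin genes with a Defa or Defb symbol to 2 (0.524%, and 0.324%). These name groups were chosen after the intervals had been seen, and gene density differs around them.

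EV intervals were counted at 5 gene lists of the cell cycle, chromatin assembly and the early serum response. In or within 1000 bp of the gene, an EV interval was found for 0 of 40 G1/S and replication genes, 0 of 21 genes of the RB and E2F family, 0 of 23 G2/M genes and 0 of 20 immediate early genes. Of 18 histone chaperones and chromatin assembly genes 1 had an interval, Chaf1a, and among all 21887 protein-coding genes 95 did (0.434%). Peaks of E2F1 replicates 1 and 2 were found at 40 and 39 of the 40 G1/S genes, 19 and 20 of the 21 RB and E2F genes, and 17 and 17 of the 18 chaperones. They were found at 21 and 22 of the 23 G2/M genes and 15 and 16 of the 20 immediate early genes, beside 8085 and 8364 of the 21887 protein-coding genes. With 0.434% of all genes holding an interval, a count of 0 in lists this short is near the background, and nothing is read from it.

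Chaf1a, which encodes the large subunit of the chromatin assembly factor that places histones on newly copied DNA, held the strongest EV peaks by fold. Its 3 intervals lay inside the gene, at chr17:56046798-56047652, chr17:56057690-56059057 and chr17:56062064-56065446. At the first, the folds were 11.3 in EV replicate 1, 121 in EV replicate 2, 19.8 in E2F1 replicate 1 and 2.60 in E2F1 replicate 2. The middle one was listed in EV replicate 2 alone, with a fold of 34.1. The last had folds of 7.39 and 9.22 in EV replicate 1, where it fell into 2 peaks, and 169 in EV replicate 2. There E2F1 replicate 1 had folds of 6.49 and 12.6 and E2F1 replicate 2 had 4.90.

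At the intervals inside Chaf1a, EV replicate 2 thus stood far above the other 3 libraries, and E2F1 replicate 2 was the lowest. Fold is a ratio, and at the first interval the reads behind it differed in the same order. The summit pileup there was 107 reads in EV replicate 1, 2041 in EV replicate 2, 156 in E2F1 replicate 1 and 65 in E2F1 replicate 2. The local background there was 3.88 and 13.5 times the genome-wide one in the EV replicates. In the E2F1 replicates it was 3.76 and 13.1 times, alike within a replicate number at this interval. At the last interval, by the peak of highest fold, the local background was 4.33 and 7.07 times in the EV replicates. In the E2F1 replicates it was 3.34 and 5.84 times there, less alike within a number. At the last interval the order of reads differed from that of folds. EV replicate 1 had 96 reads and E2F1 replicate 1 had 89, at folds of 9.22 and 12.6. At the start of the gene, in the promoter window printed above, the E2F1 replicates had peaks with folds of 23.8 and 30.0, and neither EV library had one. Whether the intervals inside the gene fall on exons was not tested, since the gene table gives none.

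**Figure D2:**
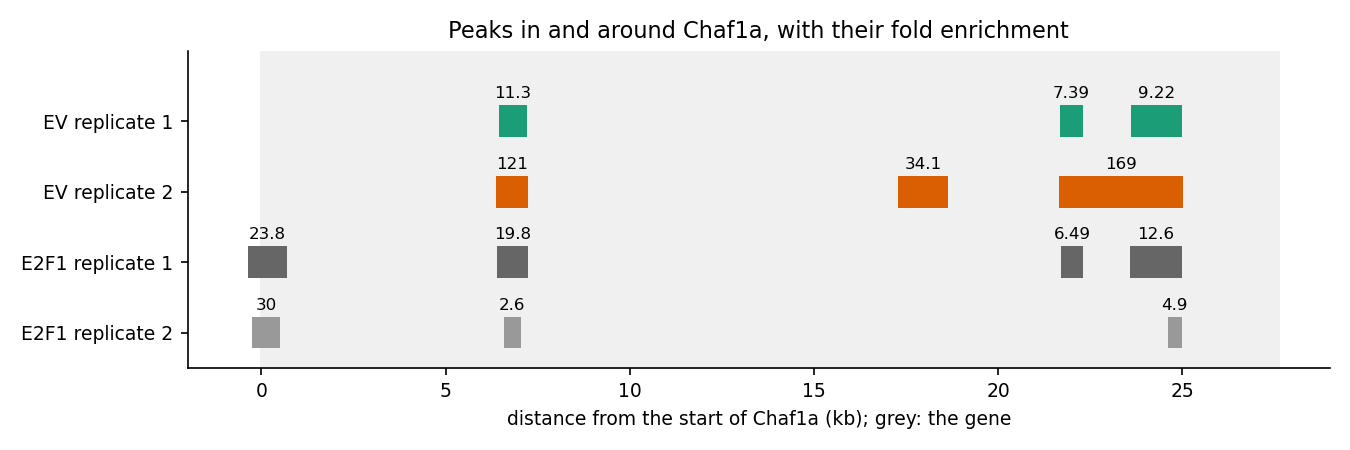
Peaks in and around Chaf1a by library, as bars over the distance from the gene's start in kb, with the fold enrichment printed above each. The peaks at the start belong to the 2 E2F1 libraries, and the highest folds inside the gene, 121 and 169, to EV replicate 2.

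At 3 gene boundaries an EV peak lay under a strong peak of both E2F1 libraries. All 3 were listed in EV replicate 2 and not in EV replicate 1. At Lmnb1, which encodes the nuclear envelope protein lamin B1, the fold was 13.3 in EV replicate 2, 56.5 in E2F1 replicate 1 and 65.8 in E2F1 replicate 2 (interval chr18:56708167-56708475). At Chic2, a gene of a membrane-associated protein, the folds were 6.43, 16.9 and 32.2 in the same order (chr5:75043774-75044224). At Nup205, which encodes a scaffold protein of the nuclear pore, they were 6.14, 22.6 and 58.9 (chr6:35177888-35178156).

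These intervals were narrow and their summits lay deeper in the gene than those of the E2F1 peaks. The EV summit was 511 bp inside Lmnb1, where the E2F1 summits were at -348 and -317 bp, outside the gene. In Chic2 it was 480 bp inside, beside -39 and -60 bp, and in Nup205 it was 411 bp inside, beside 53 and 82 bp. The EV summit was therefore between 329 and 859 bp further in, in all 3 genes. The EV peaks held 34, 13 and 16 reads at the summit in Lmnb1, Chic2 and Nup205, and the counting error of such numbers is wide. The local background was 1.39, 1.00 and 1.50 times the genome-wide one, lower than at every other interval that both E2F1 libraries overlapped.

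**Figure D3:**
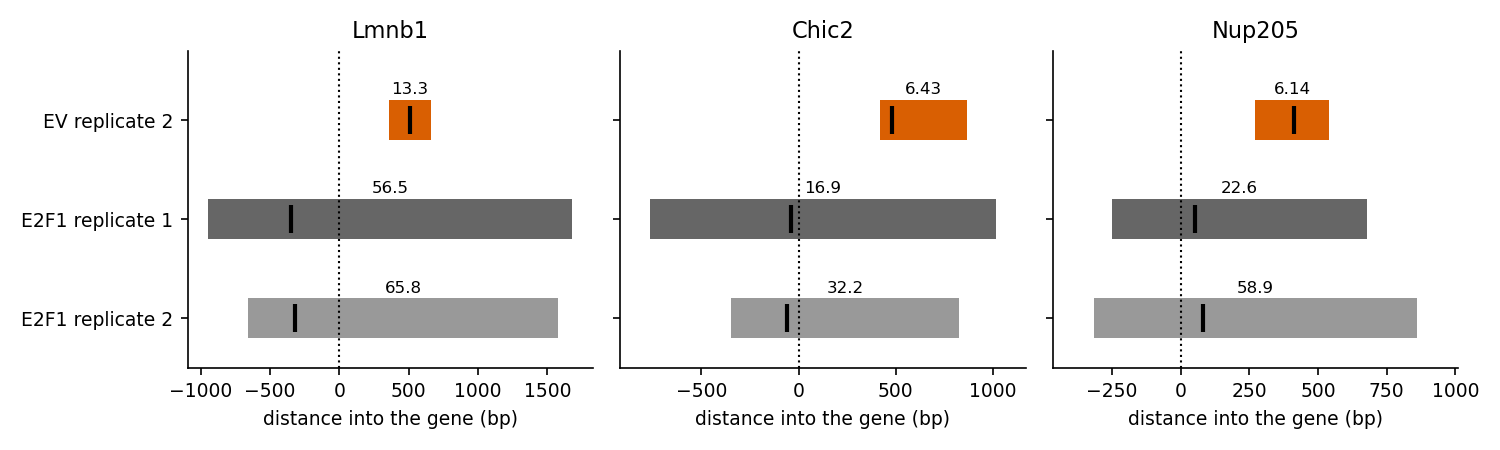
Peaks at Lmnb1, Chic2 and Nup205 as bars over the distance into the gene in bp (0 is the gene boundary), with summits as black ticks and the fold above each bar. The summits of EV replicate 2, at 511, 480 and 411 bp, lie further in than those of both E2F1 libraries.

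The other 19 boundary intervals were of another kind by their values. Their folds ran from 2.30 to 5.63, 18 of the 19 lay at a local background of at least 5 times the genome-wide one, and 4 were met by an E2F1 peak of 1 library. The exception in background was LOC115485924, with a fold of 5.63 in EV replicate 2 at 1.71 times. Not all of the 19 are named here. Among those named, folds were 4.34 at Gm40469, 4.22 at Gm51572 and 3.90 at Adgrf2, which encodes an adhesion-type receptor. They were 3.74 at Vmn2r29, a vomeronasal receptor gene, and 3.61 at Gm15319. The interval at Gm15319 was listed in EV replicate 1 and the other 4 in EV replicate 2. Further boundary intervals lay at Vmn1r48, Gm51597, 4930467E23Rik, Gm51573, Gm21119, Nmi, Gm40363, Gm51598, Gm40365, Sfi1 and Gm40364, with folds from 2.30 to 3.48.

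In all, 42 of 406 intervals were overlapped by an E2F1 peak (10.3%, Wilson 95% interval 7.74 to 13.7). Seen from the E2F1 side, 0.498% of the peaks of E2F1 replicate 1 and 0.262% of those of replicate 2 met an EV peak. Both E2F1 libraries had a peak at 21 intervals, E2F1 replicate 1 alone at 18 and E2F1 replicate 2 alone at 3. The share was 5.91% without E2F1 replicate 1 and 31.4% of 70 intervals without EV replicate 2. Among the 20 intervals of both EV libraries 7 were overlapped.

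The E2F1 peaks that met EV intervals were among the weakest of their lists by fold. Their median fold was 2.68 in E2F1 replicate 1 and 3.25 in E2F1 replicate 2, and 33 of 39 and 19 of 24 of the overlapped intervals had an E2F1 fold under 5. The local background of overlapped intervals had a median of 40.3 times the genome-wide one, and that of the others 3.97 times. An E2F1 peak was present at 38 of 188 intervals of high local background (20.2%) and at 4 of 218 others (1.83%). The 4 were Lmnb1, Chic2, Nup205 and an interval 24383 bp from Apba2 where EV replicate 1 had a fold of 3.59 and E2F1 replicate 2 one of 5.92.

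Many EV intervals lay at high local background, meaning at least 5 times the genome-wide one. It held for 188 of 406 intervals (46.3%, 41.5 to 51.2), beside 2.68% of E2F1 intervals. By library the share was 52.9% and 46.1% of EV peaks and 2.64% and 0.810% of E2F1 peaks, a difference of 47.7 percentage points (exact permutation p = 0.333, adjusted p = 0.389). High-background intervals had a median fold of 2.98 and a median −log10 q of 12.3, and the others 5.82 and 7.24. Since every list starts at the same p, a peak at low background needs a higher fold to be listed, and part of this contrast is fixed by that threshold.

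**Figure D4:**
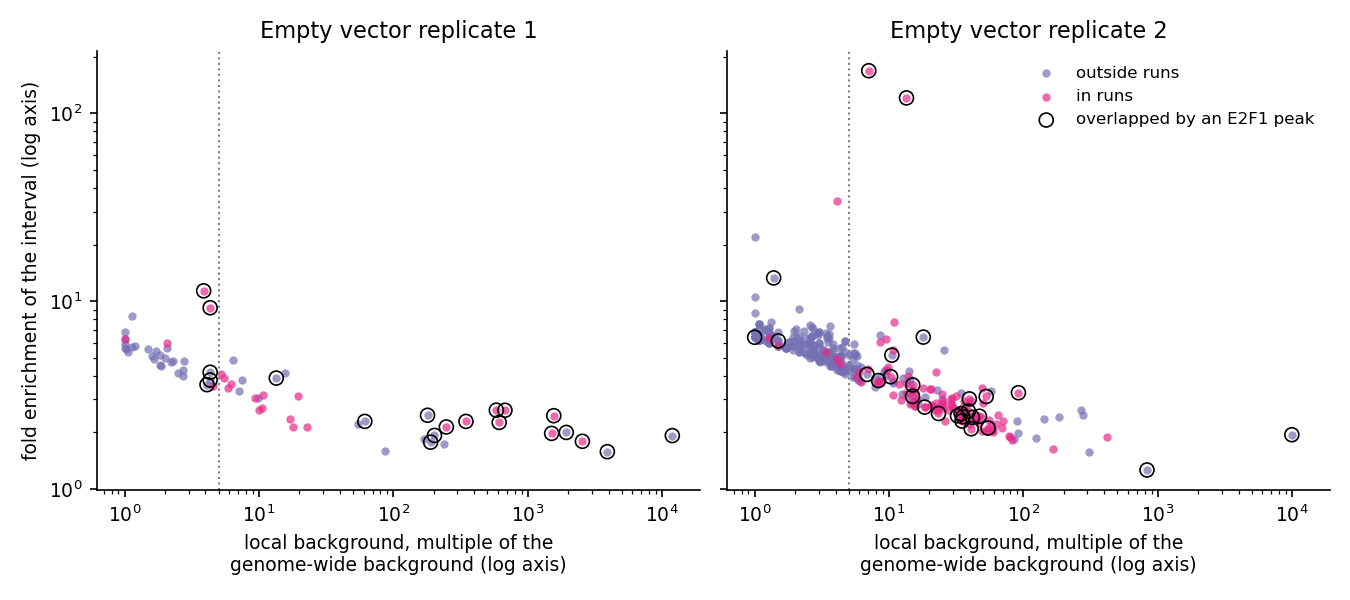
Fold enrichment of each EV interval against its local background as a multiple of the genome-wide one (both log axes), for EV replicates 1 and 2, with intervals in runs in pink, others in violet and those overlapped by an E2F1 peak ringed. The dotted line is at 5 times; most ringed points lie to its right at folds near 2 to 3, while the Chaf1a points stand highest in both panels.

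By −log10 q the first peaks of the EV replicates differed. In EV replicate 2 they were those of Chaf1a, at 3419 and 2896 for the first and the last interval, and in EV replicate 1 these had 72.7 and 56.5. The highest value of EV replicate 1 and the next of EV replicate 2 lay in a region of very high background. This interval at chr2:98666682-98667258, 1035010 bp from its nearest protein-coding gene Lrrc4c, had −log10 q values of 3813 and 1777. Its folds were 1.92 and 1.95 at 11926 and 9954 times the genome-wide background, and the E2F1 replicates had folds of 2.14 and 2.84 there. An interval at chr14:19415822-19418945 had folds of 1.58 and 1.26 in the EV replicates and 1.70 and 2.21 in the E2F1 replicates. All 4 libraries had folds under 3 at both places, but they differed in strength at the second. There the EV replicates had −log10 q values of 531 and 10.3, at 3918 and 832 times the genome-wide background, and 588 and 1227 in the E2F1 replicates.

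The EV intervals that both E2F1 libraries overlapped at low fold were few in kind. Intervals of EV replicate 1 alone, 123914 bp from Fgf14 on chromosome 14, 16950 bp from Mrgprd on chromosome 7 and 8554 bp from Gm45871 on chromosome 18, had EV folds of 2.47, 1.93 and 1.78. The E2F1 folds there were 4.40 and 3.19, 3.20 and 2.75, and 2.74 and 2.66. All 3 lay at a background between 180 and 203 times the genome-wide one. Their E2F1 and EV folds were all under 5.

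Across the 20 intervals of both EV libraries the fold was higher in EV replicate 2 than in EV replicate 1 at 18. The exceptions were the interval in 4930447K03Rik, with 4.18 and 4.07, and that on chromosome 14 given above. Median folds were 3.62 and 4.62 in EV replicates 1 and 2, and the local background was high at 17. The 3 intervals at low background were in Gm34259, 142878 bp from Tsc22d2 (folds 5.19 and 6.45) and 10216 bp from Il23r, an interleukin receptor gene (4.83 and 5.46). Low folds at high background were found near Ly6c2, a surface antigen gene (1.74 and 2.49 at 238 and 277 times), in 2700054A10Rik (1.84 and 2.64 at 169 and 269 times) and in Gm20590 (1.59 and 2.37 at 86.4 and 141 times). None of these last 3 had an E2F1 peak.

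Some intervals of both EV libraries had no E2F1 peak. In Gm34259, a non-coding gene on chromosome 17 that lies 367729 bp from Arid1b, the folds were 5.10 in EV replicate 1 and 22.0 in EV replicate 2 at 1.60 and 1.00 times the genome-wide background. Intervals near vomeronasal receptor genes, which serve pheromone sensing, had folds of 4.14 and 5.49 near Vmn1r2 and of 4.86 and 6.58 near Vmn1r238. In EV replicate 2 alone, the widest interval outside runs, 6170 bp and 201559 bp from Lama2, had a fold of 6.10. In the same library Phip, which encodes a chromatin reader, had a fold of 10.6 inside the gene, where the E2F1 replicates had other peaks with folds of 23.3 and 34.6 that did not overlap it. In EV replicate 1 alone, Abcg2, which encodes a drug efflux transporter, had a fold of 8.34.

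EV intervals came in runs, defined as at least 3 intervals with neighbours at most 50 kb apart. There were 128 intervals in 20 runs (31.5%, 27.2 to 36.2), beside 33.5% of E2F1 intervals, so the share itself did not set them apart. By library the shares were 25.7% and 30.4% for EV and 30.0% and 30.5% for E2F1 (difference -2.19 percentage points, exact permutation p = 0.667, adjusted p = 0.667). The EV lists are far shorter, and an equal share in runs therefore comes from few places. High local background was present at 119 of the 128 intervals in runs (93.0%) and at 69 of 278 outside (24.8%).

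The run with the most intervals lay between Hrh1, a histamine receptor gene, and Atg7, an enzyme gene of autophagy, at chr6:114497114-114629610. It held 21 intervals over 132 kb, all of EV replicate 2, and no gene of the table. Folds ran from 2.00 to 4.22, −log10 q from 5.81 to 31.5, and the local background from 13.5 to 59.8 times the genome-wide one. Neither EV replicate 1 nor either E2F1 library listed a peak in it.

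**Figure D5:**
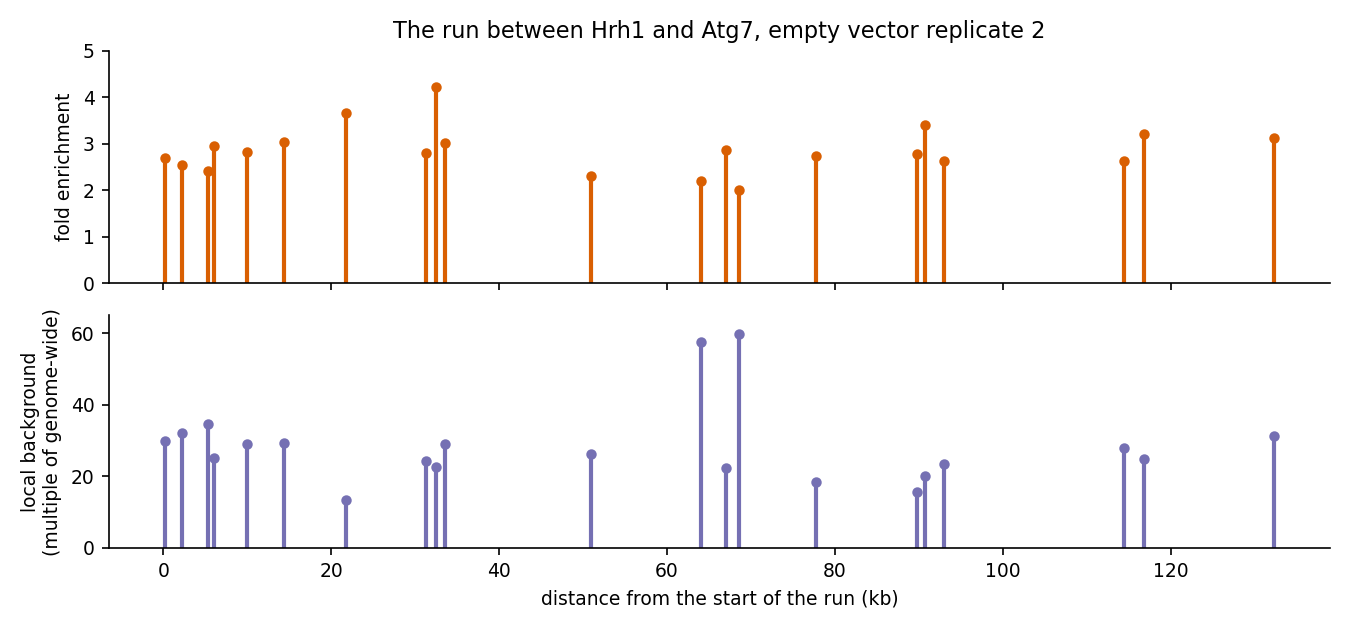
The 21 intervals of the run between Hrh1 and Atg7 in EV replicate 2, by distance from the start of the run in kb, with fold enrichment above and local background (multiple of the genome-wide one) below. Folds stay between 2.00 and 4.22 along the whole run.

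Other runs of at least 5 intervals lay on chromosomes 6, 7, 8 and 9 and on an unplaced scaffold. On chromosome 8, chr8:20493786-20706892 held 15 intervals, 3 of them in both EV libraries, with Gm40469 and Gm21119 as protein-coding genes and Defb33, a beta-defensin gene, 185775 bp beyond it. On chromosome 6, chr6:47655467-47686326 held 7 intervals of EV replicate 2 over Gm40369, Gm40367, Gm40365, Gm36327, Gm40364 and Gm40363, and E2F1 peaks met 6 of them. Next to it, chr6:47739240-47773160 held 8 intervals, 3 of which E2F1 peaks met. These runs lie between Ezh2, the gene of a histone methyltransferase, and Pdia4, and neither gene had an EV interval.

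Snhg14, a long non-coding RNA gene that hosts arrays of small nucleolar RNAs in an imprinted region, held 7 intervals at chr7:59728768-59771732. Folds were between 2.14 and 4.07 for the 4 peaks of EV replicate 1 and between 3.47 and 4.29 for the 4 peaks of EV replicate 2, and 1 interval was shared. No E2F1 peak lay in this run.

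At the first bases listed for chromosome 9, chr9:3000243-3038257 held 5 intervals of EV replicate 1, which covered 92.8% of the run. Folds were at most 2.46 at up to 2554 times the genome-wide background, and both E2F1 libraries overlapped all 5. An unplaced scaffold held a run of 20 intervals, 3 of them from EV replicate 1 and 17 from EV replicate 2, with folds up to 3.02 and E2F1 peaks at 6. Among the shorter runs were those in Ahnak2 (3 intervals, folds 3.16 to 4.02), in Tmem267 (3, folds 1.64 to 3.26) and in Flg and Hrnr (3, folds 3.72 to 5.83), which encode epidermal proteins made of repeated units. These 3 runs were listed in EV replicate 2 and not in EV replicate 1.

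EV replicate 1 had a group of its own on chromosome 4. Between 145 and 148 Mb, a window chosen after the intervals were seen, it had 12 of its 70 peaks (17.1%), around zinc finger genes such as Zfp993, Zfp978 and Zfp985. EV replicate 2 had 1 of 358 there, and the E2F1 replicates 3 and 4, none of which met an EV interval. The 12 peaks had folds from 3.33 to 6.83 and a local background of 1.00 to 7.07 times the genome-wide one (median 1.43).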

How the data were processed

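ChIP-seq peak lists of 4 libraries (2 EV, 2 E2F1) were used, grouped by sample titles. Per the submitters' processing notes, FastQC, Trimmomatic, Bowtie2, MACS2 and ChIPseeker were used with build mm10. Versions, antibody and peak-calling control are not given in the sources used here. Each deposited list has 10 columns and 1 list per library. The score, deposited per peak, ranks peaks within a list. Fold enrichment, as deposited, is the ratio of pileup to local background. The p-value and the q-value of each peak are deposited as −log10.

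Pileup and background were solved from fold (pileup plus 1 over background plus 1) and −log10 p (Poisson upper tail). Simulated data made with the same formulas tested the solving, not whether the lists follow these formulas. In the lists the solved pileup was within 0.05 of a whole number for 95.7% and 99.7% of EV peaks. The share was 99.99% and 99.98% of E2F1 peaks. Genes were from RefSeq GRCm38.p6; coordinates count from 1. Libraries were compared by exact two-sided permutation tests of 1 value per library, adjusted over 7 tests (Python 3.11.15, numpy 2.4.6, pandas 2.3.3, scipy 1.17.1). Wilson 95% intervals and read numbers cover counting error only. Members, lists and named regions were chosen with earlier results of these data known. Named regions followed a rule: intervals of both EV libraries, the 10 highest of each EV list by fold and by −log10 q, the 5 widest, runs of at least 5, boundary intervals, those overlapped by both E2F1 libraries, genes with at least 3 intervals and the gene lists. Some regions under this rule are not reported here. The motif sets, the self-match of windows, the gene name groups, the chromosome 4 window, the fold limit of 5, the width limit of 300 bp and the shorter runs in Flg and Hrnr were chosen after values were seen. Alternatives included a −log10 q of at least 20, other distances, leaving out each library and a replicate block.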

Additional observations from a re-analysis of the deposited data

How the results depend on the processing

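Over 14 results, 83 alternatives were computed: 54 kept the direction or stayed within the interval, 23 moved and 6 reversed. With a −log10 q of at least 20, 49 intervals remained, of which 16.3% were in both EV libraries, 40.8% met an E2F1 peak, 71.1% overlapped no gene and 93.9% were at high background; the log2 differences became 0.42 for width and 0.21 for −log10 q, and the run difference 9.82 percentage points, all reversed. With means, width (0.32) and −log10 q (0.43) reversed. The E2F1 overlap was 6.90% with 50% reciprocal overlap, 6.90% with summits within 200 bp and 5.91% with E2F1 peaks at or above their median score. The boundary share was 9.42% at 2500 bp and 12.0% for all genes. The share overlapping no gene was 72.8% for protein-coding genes alone. The share away from any gene was 43.7% at 10 kb and 13.6% at 50 kb. Runs of at least 5 held 20.4%. High background held for 63.1% at 3 times and 34.5% at 10 times.

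Leaving out 1 library at a time gave 70 to 358 intervals, an E2F1 overlap of 5.91% to 31.4%, boundary shares of 3.03% to 6.21%, shares without a gene of 54.5% to 63.3%, run shares of 25.7% to 30.4%, high-background shares of 46.1% to 52.9%, and a run difference of -4.56 to 0.17 percentage points, which reversed without EV replicate 1. With the replicate block the differences could not change (for fold -1.23), since the mean of paired differences equals the difference of means. These alternatives are counted among those that kept the direction. Sign flips gave an exact p of 0.5, the lowest that 2 pairs allow. With 2 pairs there are too few to settle whether the numbers pair the samples. At shared intervals the local backgrounds of EV and E2F1 peaks differed by a median of 1.03 times (replicates 1, 18 intervals) and 1.23 times (replicates 2, 10 intervals) within a number, and by 1.41 and 1.49 times across numbers (19 and 27 intervals), a comparison added after the data were seen. Pileups of 13 to 34 reads limit the boundary intervals at Lmnb1, Chic2 and Nup205.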
